A study of Drosophila melanogaster with 6 samples.

Results

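The glutathione transferase family of Drosophila melanogaster was examined in embryos of clbn knock-out and w1118 flies. Members were the genes named GstD, GstE, GstS, GstT, GstO or GstZ with a number in the array's annotation, and Mgstl, the microsomal transferase. The rule found 35 genes on 38 probe sets, out of 11982 named genes, and each gene was represented by the probe set of highest mean over the 6 arrays. They were 11 genes of class D (delta), 13 of class E (epsilon), 1 of class S (sigma), 4 of class T (theta), 3 of class O (omega), 2 of class Z (zeta) and Mgstl. The RefSeq gene table holds 36 such genes, and GstE8 was not analysed here. The groups were 3 arrays of clbn knock-out embryos and 3 arrays of w1118 embryos, called wild type in the labels, aged 0 to 24 h, from stocks held at 25 °C. Clbn (Caliban) is the fly homologue of NEMF, which acts in ribosome-associated quality control, and the series title ties it to mitochondrial form and redox state in the gut. The labels give w1118 as the strain background of both groups, with no statement of backcrossing or of the allele. What follows from the loss of clbn and what follows from any other difference between these stocks cannot be told apart.

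Glutathione transferases join the tripeptide glutathione to electrophilic compounds, which makes them more soluble and easier to export, and several also reduce peroxides. The soluble enzymes are grouped into classes by sequence. Delta and epsilon enzymes have expanded in insects, where they are best known for breaking down insecticides and products of lipid peroxidation. Omega enzymes act as thiol transferases, zeta enzymes isomerise maleylacetoacetate in tyrosine breakdown, and the sigma enzyme of flies acts on products of lipid peroxidation. Microsomal transferases sit in membranes and are not related to the soluble enzymes in sequence.

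The arrays had medians between 6.17 and 6.36 in log2 units, and all values below are on that scale. The gene clbn itself was at 5.42, 5.27 and 5.14 on the 3 knock-out arrays, against 7.86, 8.25 and 8.44 on the 3 w1118 arrays (log2 difference -2.91, limma adjusted p = 7.01e-05). All 9 measured embryonic patterning genes lay above the median of every array, 5 of them above the third quartile. All 5 measured adult and male-specific genes lay below the median of every array, with Yp1, SP and Acp26Aa below the first quartile and Yp2 and Yp3 above it. The mean level of the actin, eIF-4a and GAPDH 3′ control probe sets minus that of their 5′ counterparts, a measure of RNA quality, was 1.24, 0.729 and 0.667 on the knock-out arrays, against 0.779, 0.729 and 0.723 on the w1118 arrays (exact permutation p = 0.8, 2-sided, smallest possible 0.1). Knock-out array 1 thus stood apart from the other 5. Among tissue markers, 3 of 7 muscle genes, 3 of 6 cuticle and epidermis genes, 1 of 6 neuronal genes, 1 of 7 midgut genes and 1 of 3 Malpighian tubule genes fell, and 0 rose. Over all genes, 2.63% were called lower and 1.88% higher at the adjusted threshold given below. None of 9 embryonic patterning, 4 maternal and germ plasm or 5 adult genes was called, with 1, 2 and 0 at an unadjusted p below 0.05. At that threshold 11.8% of all genes were higher and 11.0% lower. The summed level of the muscle markers was 14.40 to 14.60 in the knock-out and 14.93 to 15.10 in w1118, and that of the cuticle markers 11.63 to 11.72 and 12.35 to 12.61. The 3 measured fat body genes, whose summed level was 13.29 to 13.39 in the knock-out and 13.29 to 13.33 in w1118, were not called. Log2 differences were above 0 for 7 of the 9 patterning genes, against 56.0% of all genes. They were below 0 for all 7 muscle, all 6 neuronal, 5 of 6 cuticle and epidermis, 5 of 7 midgut and 2 of 3 Malpighian tubule genes. At an unadjusted p below 0.05, all 7 muscle, 5 of the 6 neuronal and 4 of the 6 cuticle and epidermis genes were lower. The same threshold gave 2 midgut genes lower and 1 higher, and 1 Malpighian tubule gene lower. In whole embryos aged 0 to 24 h, fewer cells of a type, less RNA per cell and a different mix of ages cannot be told apart. The part of these markers in the results below was not tested.

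GstD3 and GstD4 rose in the knock-out, GstZ1 fell, and the other 32 family members were not called changed. Differences were fitted with limma over all 18769 probe sets, as knock-out minus w1118, and a gene was called at a Benjamini-Hochberg adjusted p below 0.05. Of the 35 genes, 2 were called higher, against 1.88% of all genes, and 1 was called lower, against 2.63% of all genes. The 3 calls made up 8.57% of the family, and 4.51% of all genes and 3.56% of all probe sets were called in either direction. With counts this small the family's share is a description only. The median log2 difference of the family was 0.03, against 0.02 over all genes, and 19 members (54.3%) had values above 0 and 16 below, against 56.0% of all genes above 0. At an unadjusted p below 0.05, 7 members were higher and 7 lower, against 11.8% of all genes higher and 11.0% lower. The knock-out and w1118 arrays did not overlap for 15 of the 35 members (42.9%), 8 higher and 7 lower, against 28.8% of all genes, 15.7% higher and 13.1% lower.

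**Figure D1:**
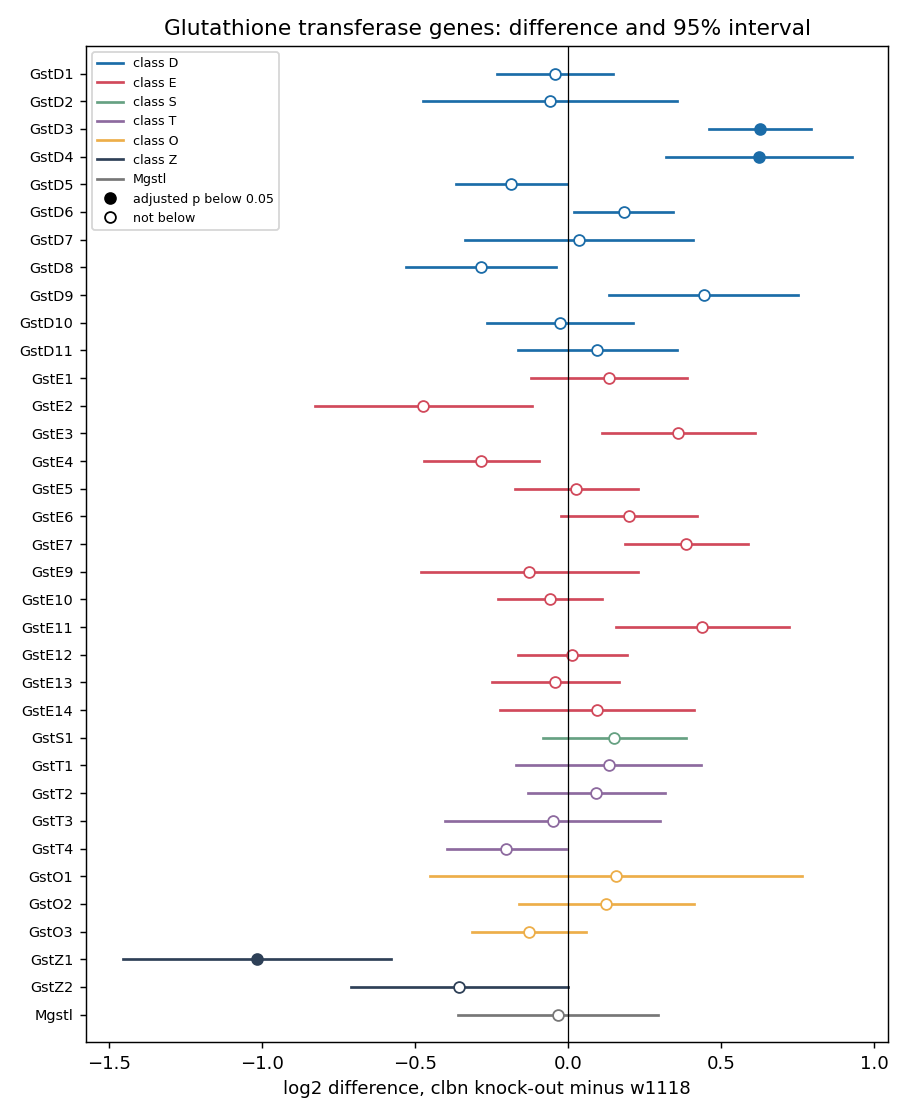
Log2 difference between clbn knock-out and w1118 embryos (horizontal axis) for each of the 35 genes, with the 95% interval of the moderated fit as a line; colours give the class and filled circles an adjusted p below 0.05. GstD3 and GstD4 lie at 0.63 and 0.62, GstZ1 at -1.02, and most of the other intervals cross 0.

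Arrays of the same number deviated together in the 2 genotypes (correlations of 0.25, 0.23 and 0.39), but the labels do not state pairs. The pairing used next was inferred from these same data. With the replicate number as a block, 5 members were called higher, against 2.59% of all genes, and 1 lower, against 3.86%. GstD9 (adjusted p = 0.0477), GstE3 (0.0426) and GstE7 (0.0407) joined GstD3 and GstD4. Each array left out in turn gave between 1 and 2 members called higher and between 0 and 1 called lower, and GstD3 was the member called in each of those 6 fits. Of the 32 members not called, 24 had a 95% interval that lay within 0.5 log2 units of 0 on either side, and all 32 had one within 1 log2 unit. The other 8 were GstD8, GstD9, GstE2, GstE3, GstE7, GstE11, GstO1 and GstZ2, for which a difference above 0.5 in size lay inside the interval. The largest called adjusted p in the family was that of GstD4, at 0.0457, and the smallest uncalled one was that of GstE7, at 0.0573.

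Class D held both increases. Its 11 genes lie in a single row on arm 3R with no other measured gene among them. GstD3 (CG4381) read 8.79, 8.64 and 8.67 on the knock-out arrays, against 8.08, 8.08 and 8.06 on the w1118 arrays. The lowest knock-out array was well above the highest w1118 array, and the w1118 arrays were within 0.02 of their mean. GstD3 rose 1.54-fold (log2 0.63, SE 0.07, limma adjusted p = 0.00418), and it was called under all 14 alternatives (adjusted p between 0.000936 and 0.0343).

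GstD4 (CG11512), the next gene in the row, read 5.44, 4.92 and 5.20 on the knock-out arrays, against 4.56, 4.66 and 4.48 on the w1118 arrays. The groups did not overlap, but the knock-out arrays spread more widely (8.70 ± 0.08 for GstD3 and 5.19 ± 0.26 for GstD4, SD, n = 3), and the w1118 values lay close to the first quartile of the arrays, 4.28 to 4.36, where folds are poorly determined. GstD4 also rose 1.54-fold (log2 0.62, SE 0.13, limma adjusted p = 0.0457). Its call was lost without knock-out array 1 (adjusted p = 0.0553), knock-out array 3 (0.107), w1118 array 1 (0.165), w1118 array 2 (0.0750) or w1118 array 3 (0.158), and stayed without knock-out array 2 (0.0267). The log2 difference was between 0.50 and 0.67 in the 5 fits that lost the call and 0.76 in the one that kept it.

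The other class D genes were not called by the unblocked fit, and their differences took both signs along the row. GstD9 read 8.80, 8.43 and 8.36 on the knock-out arrays, against 8.19, 8.17 and 7.91 on the w1118 arrays (log2 0.44, adjusted p = 0.124, and 0.0477 with the block). All 3 knock-out values lay above all 3 w1118 values, so any pairing of the arrays gives the same sign. GstD6 read 4.57, 4.61 and 4.63 in the knock-out, against 4.41, 4.48 and 4.37 in w1118, a small separation near the first quartile (log2 0.18, adjusted p = 0.213). GstD5 had the opposite sign, with 6.95, 6.97 and 7.14 in the knock-out and 7.24, 7.20 and 7.18 in w1118 (log2 -0.19, adjusted p = 0.257). GstD8 was at 6.10, 6.15 and 5.93 in the knock-out and at 6.36, 6.17 and 6.50 in w1118 (log2 -0.29, adjusted p = 0.198). The groups did not overlap for any of these 4 genes, though knock-out array 2 and w1118 array 2 nearly touched for GstD8. These 4 were given by array because their unadjusted p was below 0.05. Over class D the groups did not overlap for 6 of 11 genes (54.5%), against 28.8% of all genes. At an unadjusted p below 0.05, 4 of the 11 were higher and 2 lower, against 11.8% and 11.0% of all genes.

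GstD1 (CG10045), the delta enzyme known for metabolising DDT and for driving a widely used reporter of oxidative stress, read 11.36, 11.31 and 11.48 in the knock-out, against 11.46, 11.33 and 11.49 in w1118. The groups overlapped, with a log2 difference of -0.04 and a 95% interval of -0.23 to 0.15 (adjusted p = 0.841). The interval did not reach the difference of GstD3. GstD2 (log2 -0.06), GstD7 (0.04), GstD10 (-0.03) and GstD11 (0.10) had overlapping groups, and their signs depended on the setting. In row order the differences ran from GstD10 at -0.03 through GstD9 at 0.44, GstD1 at -0.04, GstD2 at -0.06, GstD3 at 0.63, GstD4 at 0.62, GstD5 at -0.19, GstD6 at 0.18, GstD7 at 0.04 and GstD8 at -0.29 to GstD11 at 0.10. The 2 called genes were adjacent, with genes of small difference on both sides. The median of the class was 0.04. Delta genes are close paralogues, and how far the probes of one gene also bind the transcript of another was not analysed here.

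**Figure D2:**
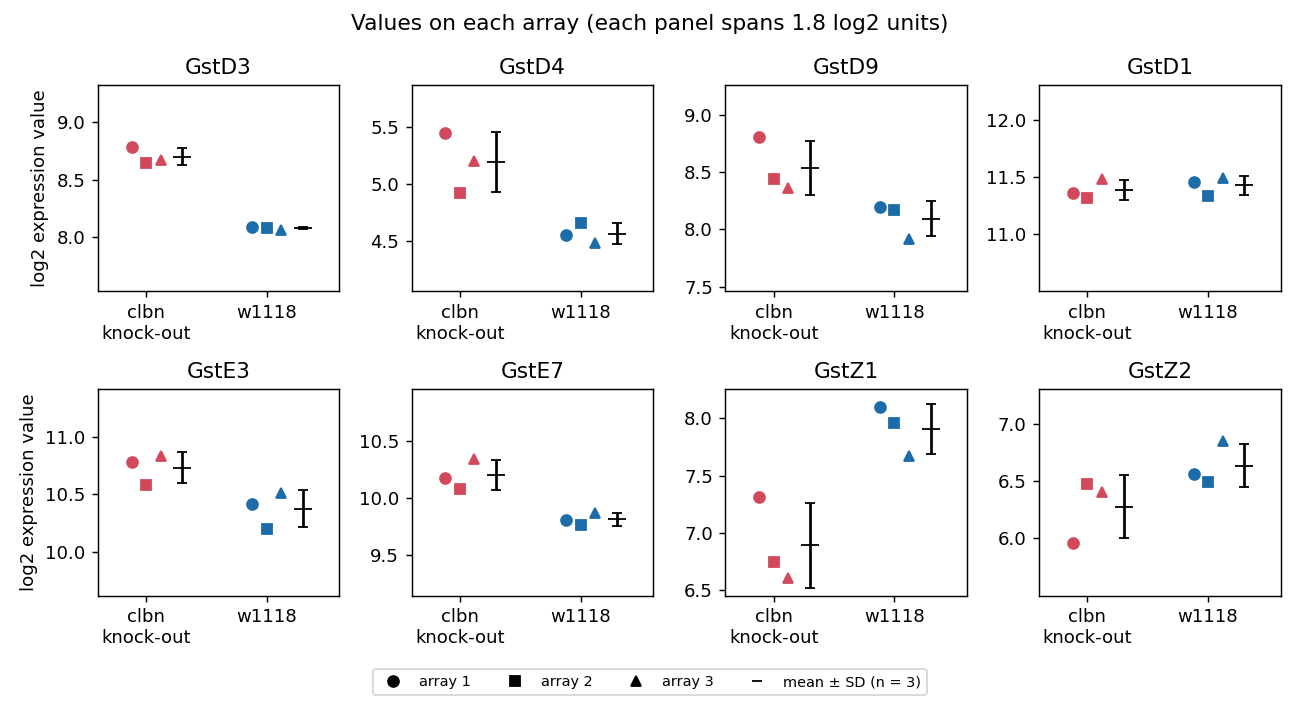
Log2 expression values of 8 genes on each array, clbn knock-out left and w1118 right, with symbols for the array number and bars for mean ± SD (n = 3); every panel spans 1.8 log2 units. GstD3 and GstD4 are higher on all 3 knock-out arrays and GstZ1 is lower on all 3, while the groups overlap for GstD1.

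Class E had no called gene in the unblocked fit. At an unadjusted p below 0.05, 3 of its 13 genes were higher and 2 lower, against 11.8% and 11.0% of all genes. Its median log2 difference was 0.03 and its values ran from -0.47 to 0.44. Of the 13 genes, 9 lie in a row on arm 2R, and GstE11, GstE12, GstE13 and GstE14 lie elsewhere on that arm. GstE7 (CG17531) read 10.18, 10.08 and 10.34 on the knock-out arrays, against 9.81, 9.76 and 9.87 on the w1118 arrays. The groups were apart (log2 0.39, SE 0.09, limma adjusted p = 0.0573), and the gene was called with the replicate block (0.0407), with arrays centred on their medians (0.0340), with array weights (0.0189), with an intensity trend (0.0484) and with probe sets averaged per gene (0.0456). No call was made when any array was left out, where the adjusted p lay between 0.0678 and 0.199.

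GstE3 and GstE11 had differences of similar size. GstE3 was at 10.78, 10.58 and 10.84 in the knock-out and at 10.41, 10.20 and 10.51 in w1118 (log2 0.36, adjusted p = 0.123, and 0.0426 with the block). In both genotypes array 2 was the lowest and array 3 the highest, so the pairs differed more evenly than the groups. GstE11 was at 10.70, 10.24 and 10.50 in the knock-out and at 10.15, 10.01 and 9.96 in w1118 (log2 0.44, adjusted p = 0.104), again without overlap. GstE6 was at 11.62, 11.64 and 11.84 in the knock-out and at 11.51, 11.38 and 11.62 in w1118 (log2 0.20, adjusted p = 0.315), where the groups met at 11.62.

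GstE2 and GstE4 lay on the other side of 0. GstE2 read 6.62, 7.22 and 6.95 on the knock-out arrays, against 7.30, 7.34 and 7.58 on the w1118 arrays (log2 -0.47, adjusted p = 0.148). The spread was widest in the knock-out, where array 1 was lowest, and without that array the difference was -0.32. GstE4 read 5.54, 5.71 and 5.53 on the knock-out arrays, against 5.83, 5.84 and 5.96 on the w1118 arrays (log2 -0.28, adjusted p = 0.113). GstE2, GstE3 and GstE4 follow each other in the row with values of -0.47, 0.36 and -0.28, so that neighbours there had opposite signs. The other class E genes had overlapping groups, namely GstE1 (log2 0.13), GstE5 (0.03), GstE9 (-0.13), GstE10 (-0.06), GstE12 (0.01), GstE13 (-0.04) and GstE14 (0.09). GstE14, also called Noppera-bo, takes part in the supply of sterol for ecdysone synthesis and read 5.69, 5.58 and 5.36 in the knock-out and 5.54, 5.62 and 5.18 in w1118.

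**Figure D3:**
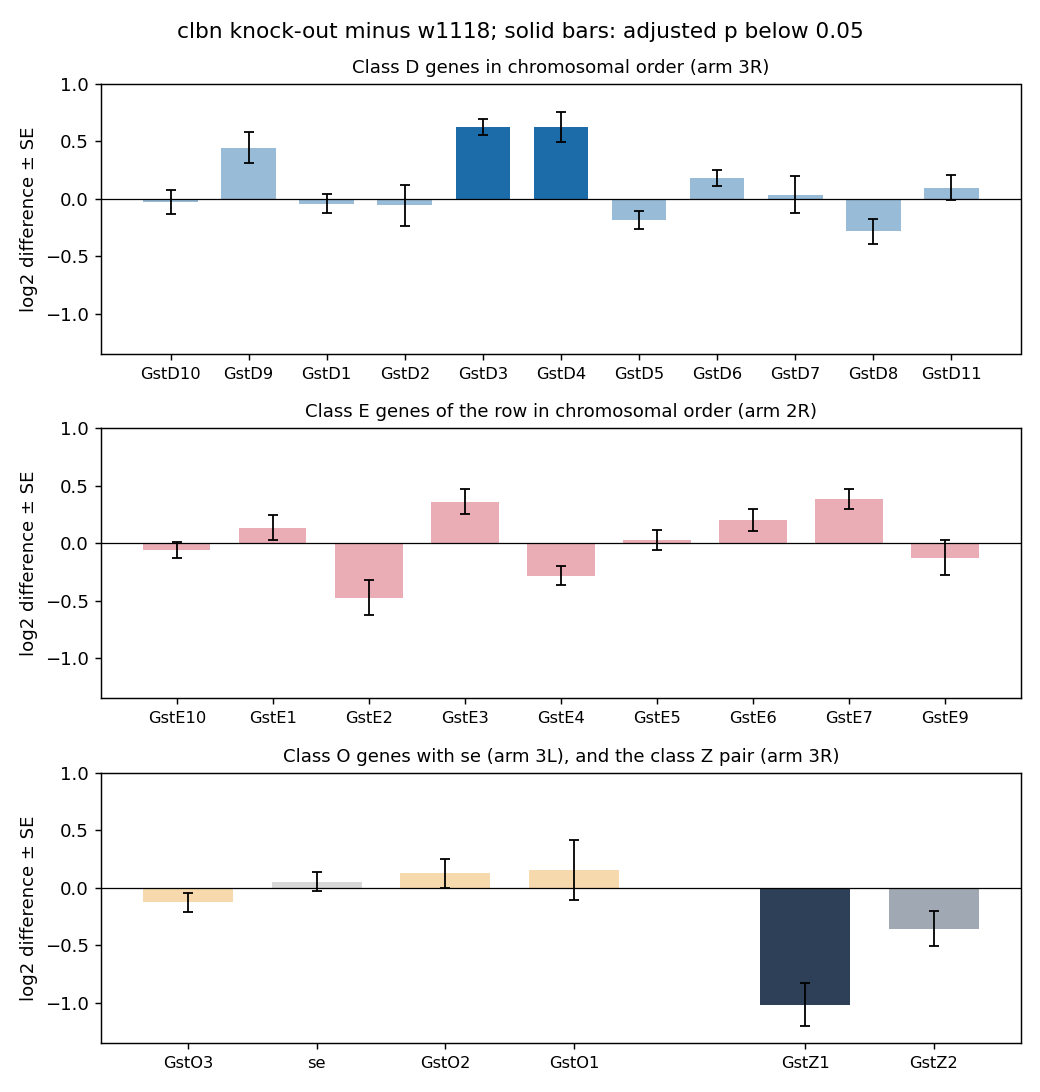
Log2 difference ± SE between clbn knock-out and w1118 embryos for the class D row, the class E row, the class O genes with se, and the class Z pair, each in chromosomal order; solid bars have an adjusted p below 0.05. GstD3 and GstD4 stand side by side above 0.6, differences in the GstE row alternate in sign around GstE3, and GstZ1 reaches -1.02.

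The class Z pair gave the family's largest difference. GstZ1 (CG9362), one of 2 adjacent genes on arm 3R for the zeta enzyme that isomerises maleylacetoacetate in tyrosine breakdown, read 7.31, 6.75 and 6.61 on the knock-out arrays, against 8.10, 7.96 and 7.67 on the w1118 arrays. All 3 knock-out arrays lay below all 3 w1118 arrays, and array 1 was the highest and array 3 the lowest in both genotypes. GstZ1 fell 2.02-fold (log2 -1.02, SE 0.19, limma adjusted p = 0.0316, and 0.00665 with the replicate block). The call was lost without knock-out array 2 (adjusted p = 0.0978), knock-out array 3 (0.0817), w1118 array 1 (0.133), w1118 array 2 (0.0761) or w1118 array 3 (0.0552), with log2 differences of -0.95, -0.88, -0.92, -0.99 and -1.14 in that order. Without knock-out array 1 the log2 difference was -1.23 (adjusted p = 0.00399).

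Its neighbour GstZ2 (CG9363) read 5.96, 6.47 and 6.40 in the knock-out, against 6.56, 6.49 and 6.84 in w1118 (log2 -0.35, adjusted p = 0.265). These groups came within 0.03 of each other, at knock-out array 2 and w1118 array 2. The level of GstZ1 minus that of GstZ2 within each array, a quantity that a shift of a whole array does not alter, was 1.35, 0.28 and 0.21 in the knock-out and 1.54, 1.46 and 0.82 in w1118. The change of this difference was -0.66 (exact permutation p = 0.2, 2-sided, smallest possible 0.1, and 0.25 over the 3 pairs, where 0.25 is also the smallest possible). All 3 same-numbered pairs had the lower value in the knock-out, and neither test could pass 0.05 with so few arrays. The measured gene next to GstZ1 on the other side, ps, which encodes the splicing factor Pasilla, was also lower on its brightest probe set. That set read 10.65, 10.73 and 10.71 in the knock-out and 11.87, 11.85 and 11.94 in w1118 (log2 -1.19, limma adjusted p = 0.000134). The dimmer probe sets of ps were not called, with log2 differences of -0.68, -1.03, -1.17 and 0.06 (limma adjusted p = 0.127, 0.0933, 0.0995 and 0.812). The direction of GstZ1 was that of the 3 of 7 muscle and 3 of 6 cuticle and epidermis markers that fell. It was also that of the 1 neuronal, 1 midgut and 1 Malpighian tubule marker called lower. All 7 muscle markers and 5 of the 6 cuticle and epidermis markers had values below 0, the exception being kkv (log2 0.07). So did all 6 neuronal, 5 of 7 midgut and 2 of 3 Malpighian tubule markers, while 2 of 3 fat body markers lay above 0. The part of these markers in the difference of GstZ1 was not tested.

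Of the 4 other measured genes of phenylalanine and tyrosine breakdown, none was called. At an unadjusted p below 0.05, 1 was lower, against 11.0% of all genes. That was Hpd, which encodes a dioxygenase of an earlier step than the zeta enzyme's, at 6.69 ± 0.50 in the knock-out and 7.41 ± 0.48 in w1118 (SD, n = 3 each, log2 -0.72, adjusted p = 0.24). Its groups overlapped. Faa, for the hydrolase that acts after the zeta enzyme, had a log2 difference of 0.14, hgo, for the oxygenase before it, 0.08, and Tat, for the transaminase at the start, -0.20.

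No member of classes S, T and O was called, and neither was Mgstl. At an unadjusted p below 0.05 there was 1 among these 9 genes, GstT4, which was lower, against 11.0% of all genes lower. GstT4 (CG1681) read 10.27, 10.37 and 10.46 in the knock-out, against 10.54, 10.50 and 10.66 in w1118, without overlap (log2 -0.20, adjusted p = 0.247). The other theta genes overlapped between genotypes, with differences of 0.13 for GstT1, 0.09 for GstT2 and -0.05 for GstT3. GstS1 (CG8938), whose protein is abundant in adult flight muscle, was at 11.30, 11.01 and 10.96 in the knock-out and at 10.97, 10.93 and 10.92 in w1118. Knock-out array 1 set most of the distance, and without it the difference was 0.05 in place of 0.15. The GstS1 difference was not called (adjusted p = 0.478). All 7 muscle markers had values below 0 (median -0.42), and the part of muscle in the GstS1 difference was not tested.

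The omega genes lie on arm 3L together with se, whose omega enzyme makes a precursor of the red eye pigments and which the naming rule does not cover. GstO1 read 7.92, 7.25 and 6.85 in the knock-out, against 7.38, 7.32 and 6.86 in w1118, the widest interval of the family (log2 0.16, 95% interval -0.45 to 0.76, adjusted p = 0.813). Array 1 was the highest and array 3 the lowest in both genotypes. GstO2 read 11.26, 10.87 and 10.92 in the knock-out, against 10.96, 10.98 and 10.73 in w1118 (log2 0.13, adjusted p = 0.656). GstO3 read 8.76, 8.54 and 8.63 in the knock-out, against 8.78, 8.73 and 8.81 in w1118 (log2 -0.13, adjusted p = 0.449). Both overlapped. The difference of se was 0.05, at 4.57 ± 0.07 in the knock-out and 4.51 ± 0.09 in w1118 (SD, n = 3 each), near the first quartile of the arrays. Mgstl read 9.64, 9.04 and 9.28 in the knock-out, against 9.38, 9.31 and 9.37 in w1118, so that knock-out arrays 1 and 2 lay on opposite sides of w1118 (log2 -0.03, adjusted p = 0.937).

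The 3 genes with a second probe set were not called on either. The dimmer probe set of GstO2 read 8.07, 7.80 and 7.54 in the knock-out, against 7.47, 7.56 and 7.29 in w1118 (log2 0.36, adjusted p = 0.213). The dimmer sets of GstE9 and Mgstl, with means between 3.73 and 4.33, lay near or below the first quartile and differed by -0.09 and 0.04. Of these 3 dimmer sets, that of GstO2 had an unadjusted p below 0.05 (0.0319). The probe sets of GstS1 and Mgstl end in _s_at, the mark of a set common to more than 1 transcript, that of GstZ2 ends in _a_at, the mark of a set common to transcripts of 1 gene, and the other 32 end in _at.

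Knock-out array 1 was the highest of the 6 arrays for 17 of the 35 members (48.6%), against 32.8% of all genes. As deviations from each gene's mean over the 6 arrays, the family averaged 0.10, -0.06 and 0.00 on the knock-out arrays, against 0.02, -0.04 and -0.02 on the w1118 arrays. Array 1 was also high against the other knock-out arrays in class O (0.34, -0.09 and -0.18 on the knock-out arrays, against 0.06, 0.04 and -0.17 on the w1118 arrays) and Mgstl (0.30, -0.30 and -0.05, against 0.04, -0.03 and 0.04). In class Z all 3 knock-out arrays were low (-0.29, -0.32 and -0.42, against 0.40, 0.30 and 0.33). The same array had the high 3′ to 5′ control difference given above, whose part in these values was not tested. Without it the family's median log2 difference was -0.01, GstD3 was higher (log2 0.58, adjusted p = 0.00736) and GstZ1 lower (-1.23, 0.00399).

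**Figure D4:**
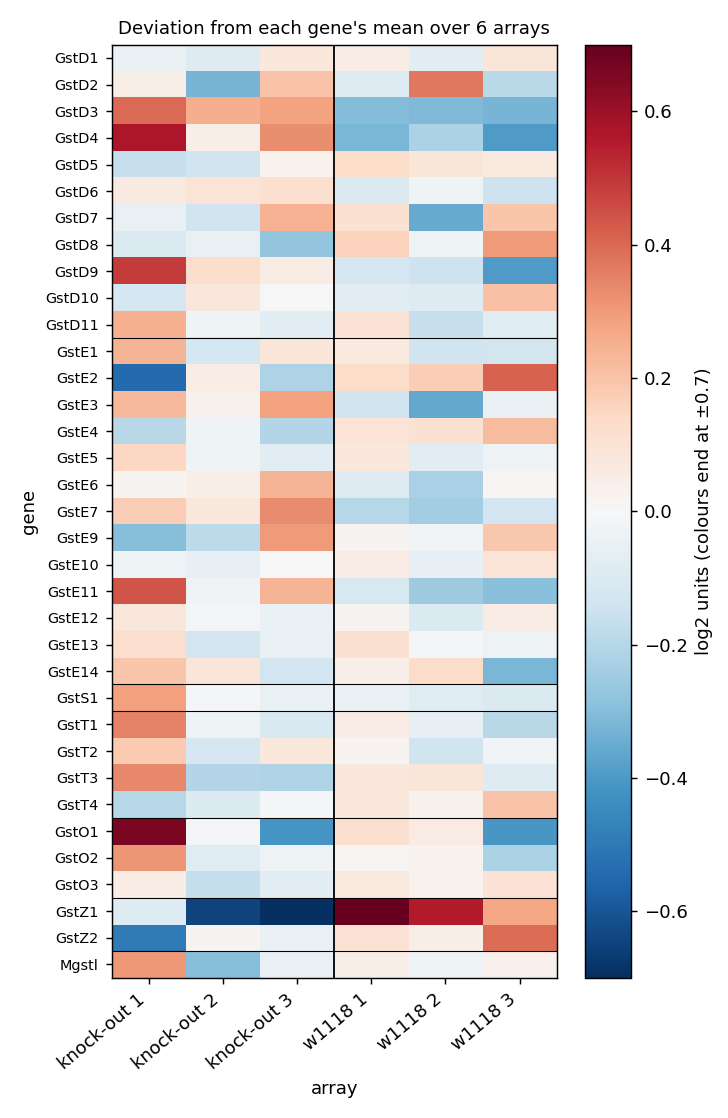
Deviation of each gene on each array from its mean over the 6 arrays, in log2 units, with knock-out arrays left of the vertical line and w1118 arrays right of it; horizontal lines separate the classes and colours end at ±0.7. Knock-out array 1 is the highest array for 17 of the 35 genes, and the rows of GstD3 and GstZ1 change colour at the line.

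The 3 called members lie on arm 3R, the arm of clbn, but not close to it. In the RefSeq gene order 1374 measured genes lay between clbn and GstD4, and 1710 between clbn and GstZ1. Of the 16 members on chromosome 3, 3 were called, against 7.09% of all measured genes of that chromosome. Of the 19 members on chromosomes X and 2, 0 were called by limma, against 2.35% of all genes there. At an unadjusted p below 0.05, 3 of these 19 were higher and 3 lower. Over all genes of the array those shares were 11.8% and 11.0%. Among the 5 nearest measured genes on each side, 1 was called lower around the GstD row (CG10013, at 4.84 in the knock-out and 5.84 in w1118, adjusted p = 0.0109), 1 around the GstE row (Idgf5, a chitinase-like growth factor gene, log2 -0.52, adjusted p = 0.0173), 1 around the GstZ pair (ps) and 0 around the GstO row, and none was called higher. Over all genes 2.63% were called lower and 1.88% higher. The genes beside GstD10 and GstD11 at the ends of the delta row, Tim17a1 and Sol1, had differences of 0.07 and -0.21.

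Genes of glutathione synthesis, turnover and related redox steps outside the family were mostly not called. Of 7 measured genes of glutathione synthesis and turnover, 1 fell and 0 rose, and 6 had values above 0 (median 0.09). The one that fell was CG17636, predicted to encode a gamma-glutamyl transferase that breaks glutathione down, at 5.41, 5.48 and 5.39 in the knock-out and 6.69, 6.54 and 6.96 in w1118 (log2 -1.30, limma adjusted p = 0.00093). Gclc and Gclm, for the catalytic and modifier subunits of the rate-limiting synthesis enzyme, had differences of 0.09 and 0.26 and were not called. At an unadjusted p below 0.05, 3 of the 7 genes were higher and 1 lower, against 11.8% and 11.0% of all genes. The 3 were Gclm, CG1492 (log2 0.33) and Cbs (0.23). Of 5 glutaredoxin, peroxidase and thioredoxin reductase genes none was called. The smallest adjusted p was that of Gtpx, a peroxidase gene (10.24 ± 0.23 in the knock-out and 9.72 ± 0.04 in w1118, SD, n = 3 each, log2 0.51, adjusted p = 0.0587).

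Regulators, exporters and related genes showed no call in the direction of GstD3 and GstD4. The transcription factor gene cnc, the fly counterpart of Nrf2 that drives many transferase genes, differed by -0.04, its inhibitor Keap1 by 0.19, its partner maf-S by 0.12 and the xenobiotic receptor gene Hr96 by -0.03, with none of the 4 called (smallest adjusted p 0.5, for maf-S). Of 5 genes for exporters of conjugates, none was called, and CG31792 had the smallest adjusted p (log2 0.15, adjusted p = 0.358). Of 6 other genes whose proteins carry or resemble a transferase domain, none was called. Of these, 3 had an unadjusted p below 0.05, all higher, against 11.8% of all genes higher. The smallest adjusted p there was that of Clic, a chloride channel protein gene (log2 0.28, adjusted p = 0.0895). Of 6 genes of red eye pigment synthesis 1 fell, DhpD (log2 -0.63, limma adjusted p = 0.0319). Of 7 genes of ecdysone synthesis 1 fell, spok (log2 -0.83, limma adjusted p = 0.00498), which lay at 4.02 ± 0.14 in the knock-out and 4.84 ± 0.11 in w1118 (SD, n = 3 each). Its knock-out mean was below the first quartile of the arrays, 4.28 to 4.36, where folds are poorly determined. Against these counts, 1.88% of all genes were called higher and 2.63% lower.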

How the data were processed

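RNA of whole embryos was measured on 6 Affymetrix arrays, 1 sample each, 3 per genotype. The deposited table holds log2 values that the authors processed; the affy software is named per the submitters' processing notes, and no source used here states the background correction or normalisation. The log2 scale was inferred from the range of the values, 2.84 to 14.52. They were not normalised again. Arrays give no counts, no detection calls were used, and 3 arrays per genotype limit the precision. The labels do not say whether samples came from separate collections, so p-values measure the spread between these samples.

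Of 18769 probe sets besides 183 controls, 13647 had 1 gene symbol, 402 several and 4720 none; the annotation can be old. All 35 members matched the RefSeq gene table of Release 6 plus ISO1 MT, used for names, arms and order only, since no source used here names the array's genome build. Limma 3.58.1 in R 4.3.3 (lmFit, eBayes, no covariate) fitted knock-out minus w1118, adjusted over all 18769 probe sets; means are ± SD, and intervals are the fit's 95% intervals. The script was tested on simulated data. Exact permutation tests used SciPy 1.17.1. The members and gene lists were chosen with earlier results of these data known. Values on each array are given for members called or with an unadjusted p below 0.05 and for classes Z, O, S and Mgstl, and list genes are named if called, or else by smallest p; names of a list that matched no measured gene were not analysed here; others named (GstD1, GstE6, GstE14, ps and single pathway genes) were chosen after their values were seen.

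Same-numbered arrays of the 2 genotypes deviated together over all probe sets (correlations of 0.25, 0.23 and 0.39), each more than with any other number, although the labels do not state a shared batch; the fit with the number as a block is given where it changes a call. Alternatives were that block, 2 scalings, 2 filters on dim probe sets, array weights, an intensity trend, averaged probe sets and each array left out.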

Additional observations from a re-analysis of the deposited data

How the results depend on the processing

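The call of clbn and that of GstD3 held under all 14 alternatives. Members called higher numbered 5 with the replicate block, 3 with median centring, array weights, an intensity trend and averaged probe sets, 2 with quantile normalisation and with probe sets below the first quartile left out, 1 with probe sets below the median level left out, where GstD4 was not tested, and 1 to 2 without each array, against 2 in the main analysis; members called lower numbered 0 to 1 without each array and 1 under the other alternatives. The replicate block left every other call of a member as it was. Leaving out an array also leaves fewer samples. Probe sets called over the whole array numbered 1539 with array weights, 978 with the replicate block and 190 to 607 without each array (for w1118, 190 without array 1 and 256 without array 3; for the knock-out, 357 without array 2 and 344 without array 3), against 668. Among members given by array, Mgstl turned positive with median centring (0.041) and with averaged probe sets (0.0032), and ranged from -0.19 to 0.11 without each array; GstO1 turned negative with array weights (-0.13) and ranged from -0.13 to 0.40 without each array. The cause was not tested, and neither gene was called in any setting. Median centring moved the median of all genes by 0.07 and turned 7 members from negative to positive, GstD1, GstD2, GstD10, GstE10, GstE13, GstT3 and Mgstl, none of them called; array weights changed the sign of 9 members, averaged probe sets that of 1 and quantile normalisation that of 0. Leaving out knock-out array 1 changed 6 signs, and leaving out each other array changed 1 to 4. GstE14 turned negative with array weights (-0.0021) and without w1118 array 3 (-0.041). The family's median ran from -0.03 with array weights to 0.10 with median centring. The 3′ to 5′ control difference between genotypes was -0.045 without knock-out array 1 and ranged from -0.045 to 0.24 without each array. The GstZ1 minus GstZ2 change was -0.66 with the replicate block too and ranged from -1.03 to -0.46 without each array.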
